A study of Mus musculus with 104 samples.

Results

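The effect of aphidicolin was measured in mouse neural progenitor cells (NPC) with a bait break on chromosome 12. The assay was HTGTS, high-throughput genome-wide translocation sequencing. The 16 samples of this cell type and bait, of 104 in the series, were taken by their labels: NPC derived from embryonic stem cell (ESC) lines 1 and 2, treated with aphidicolin (APH) or with DMSO, its solvent. By the labels all were of strain C57BL/6/129SVE and of genotype Xrcc4-/- p53-/-, controls included, without the end-joining factor Xrcc4 and the tumour suppressor p53; the tables hold no direct check of the genotype. The sources used here do not give the dose and duration of APH or how the bait break was made. The tables hold junctions and no expression, so the label NPC could not be checked against marker genes, and the labels do not say whether experiments with different letters were separate cultures; p-values measure the spread between these experiments, which may be technical.

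In HTGTS a double-strand break at a fixed site, the bait, joins to other broken ends in the same nucleus, the prey, and the junction is copied outwards from the bait side by PCR and sequenced. APH inhibits the replicative DNA polymerases and slows replication forks, and breaks under such replication stress are known to recur in long, transcribed genes of neural progenitors. Without Xrcc4, which works with DNA ligase IV, ends cannot be joined by classical non-homologous end joining and are joined by alternative pathways that often use short stretches of identical sequence at both ends (microhomology).

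The prey list of 1 letter pair overlapped: in line 2 APH, the 21060 reads of experiment A included all 10907 reads listed under B. These were counted once as experiment A/B, which left 15 experiments, 7 with APH (4 of line 1, 3 of line 2) and 8 with DMSO (4 of each line). They held 360314 junctions in all, of 2018794 in the series, and 10936 to 57669 each. Junctions more than 5 Mb from the bait break, used for the genome-wide comparisons, numbered 1802 to 23420 per experiment, and 96.4 to 99.6% of them had distinct positions. Going by the read names, each of the 7 APH experiments shared a sequencing run with the DMSO experiments of its letter and line, and line 1 was read in 4 runs and line 2 in 3; line 2 APH C was in part read in the run of D. The shares below were therefore also compared within runs, as 7 differences of APH from same-lettered DMSO. A pair of DMSO experiments stood apart in the structure of their junctions, line 1 DMSO B and line 2 DMSO D, and results that rest on them are given with and without them.

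The bait sequence is shown because every junction starts with it. Bait alignments started at position 13000729 of chromosome 12 (mm9, plus strand), and the cut end was placed at 13000860, 131 bases further on. It is the commonest bait end among blunt joins of line 1 DMSO B. Over the 15 experiments, 99.73% of bait alignments ended at or before it. Among junctions of every kind, the commonest bait end was 13000857 (17935 junctions). The sequence was taken from the reads themselves: 761 reads spanned it and 93.2% of them were identical. The last 10 bases before the cut end are in capitals.
bait to the cut end: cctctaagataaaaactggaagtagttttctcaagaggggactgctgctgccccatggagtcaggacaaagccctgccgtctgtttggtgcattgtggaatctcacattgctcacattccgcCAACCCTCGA

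A typical junction lacks some bases of the bait end and shares a few bases with the prey. One APH junction from each of 6 of the regions described here shows this, the one nearest the middle of its 500 kb bin among those with 3 shared bases. Each run holds 18 bases of bait, the 3 shared bases in capitals, and 18 bases of prey, read from the bait outwards.
12:5247398 plus strand, 2 bait bases missing: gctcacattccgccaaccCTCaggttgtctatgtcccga
5:19260922 plus strand, 25 bait bases missing: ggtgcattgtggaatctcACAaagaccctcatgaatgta
6:77242327 minus strand, 8 bait bases missing: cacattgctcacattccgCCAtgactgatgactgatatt
12:67748828 minus strand, 41 bait bases missing: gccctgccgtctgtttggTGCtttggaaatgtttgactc
10:32300453 plus strand, 37 bait bases missing: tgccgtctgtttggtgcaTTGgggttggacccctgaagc
5:132250738 minus strand, 15 bait bases missing: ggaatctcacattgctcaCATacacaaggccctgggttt

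With APH, junctions rose in regions on 15 chromosomes, among the bins that could be tested. Of 5105 bins with a junction only 167 were tested, 92 of them on chromosome 12. The number of regions therefore depends on depth and on this filter, and without the filter 76 bins rose. Of 167 bins of 500 kb with enough junctions to test, 38 (22.8% of the bins tested) rose with APH in edgeR's quasi-likelihood test with the line as a term, at an adjusted p under 0.05. Adjoining bins were joined, which gave 31 regions on 15 chromosomes. Of the 38 bins, 28 lay off chromosome 12. Their log2 differences ran from 1.11 to 2.96 with a median of 1.82, beside 0.11 over all 167 bins, and 38 of 38 had the same sign in lines 1 and 2. The APH experiments together had 4600 junctions in the rising bins and the DMSO experiments 655. These bins held 5.31% of the distant junctions in the lowest APH experiment, 7.98% in the median and 11.6% in the highest. The DMSO experiments held 1.17%, 1.53% and 4.25%, and the highest was line 1 DMSO B; the next was 2.17%. The bins were chosen by this difference, so these shares describe its size and are no further test of it.

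A further 15 bins (8.98% of those tested) fell with APH, 12 of them on chromosome 12. This count depended on the scaling and on single experiments more than the other did. With total distant junctions as library size in place of TMM factors, which moved the median of all bins to 0.51, 58 bins rose (34.7%) and 2 fell (1.20%); all 38 rising bins were among the 58, and the 2 were among the 15. Without line 1 DMSO B, line 1 DMSO C or line 2 APH D, the bins that fell numbered 25, 9 and 7, while the bins that rose numbered 37, 39 and 38.

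The bin with the most junctions lay at position 5.0 to 5.5 Mb of chromosome 12, on the centromere side of the bait. It holds the start of Klhl29, a gene of the kelch-like family, placed at 12:5382488 on the minus strand by 1 read that matched its RefSeq promoter. In line 1, experiments A to D had 8.42, 7.84, 19.3 and 6.75 junctions per 1000 distant junctions with APH, and 1.71, 3.80, 2.34 and 2.50 with DMSO. In line 2, experiments A/B, C and D had 10.1, 16.6 and 15.5 with APH, and A to D had 1.16, 1.39, 5.56 and 1.32 with DMSO. Every APH experiment lay above every DMSO experiment, though the highest DMSO value, line 2 DMSO C at 5.56, came near the lowest APH value of 6.75. The log2 difference was 1.86 ± 0.29 (SE; adjusted p = 2.25e-08, edgeR). In counts per 100 kb, the APH experiments together had 109, 145, 137, 136 and 72 junctions across the bin, against 84 in the 100 kb before it and 41 in the 100 kb after it. DMSO had 22, 18, 18, 18 and 8. These counts are summed over experiments and not scaled for depth, which was greater in total with APH. The neighbouring bins gave log2 differences of 0.65 (adjusted p = 0.123) and 0.47 (adjusted p = 0.341), neither past the threshold. With total distant junctions as library size the first of them had 1.07 (adjusted p = 0.00319, edgeR). Whether the rise ended at the edge of the Klhl29 bin thus depended on the scaling.

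Genes were tied to bins only through sequence, because the tables are in mm9 and the gene table is of GRCm38.p6. RefSeq promoter windows were matched to the prey reads by 30 identical bases, which placed the starts of 1757 genes, and a bin was then located between its nearest placed starts. For 23 of the 38 rising bins these lay at most 6 Mb apart. For 13 they lay further apart, and 2 bins on chromosome 18 could not be placed. In the wide intervals, which hold among others Magi2, Mdga2, Nkain2, Naaladl2 and Astn2, the bin cannot be tied to 1 gene.

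Among the narrow intervals, several held a single very long gene of neuronal adhesion or signalling. The bin at 142.0 to 142.5 Mb on chromosome 5 lay in an interval of 1.01 Mb with 1 protein-coding gene, Sdk1, a synaptic adhesion protein of the immunoglobulin superfamily. It had 0.812, 1.28 and 2.07 junctions per 1000 with APH (lowest, median and highest experiment) and 0, 0 and 0.569 with DMSO. The groups did not overlap, and the log2 difference was 2.34 ± 0.55 (SE; adjusted p = 0.000359, edgeR).

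The bin at 121.0 to 121.5 Mb on chromosome 8 lay in an interval of 1.25 Mb whose long gene is Cdh13, a cadherin anchored to the membrane by a lipid. Rates were 1.20, 2.33 and 2.78 with APH and 0, 0.339 and 0.949 with DMSO, again without overlap (log2 difference 1.81 ± 0.46, adjusted p = 0.00085, edgeR). At 103.5 to 104.0 Mb on chromosome 7 the interval of 0.74 Mb began at a placed start of Tenm4, a teneurin, which are large synaptic adhesion proteins. Rates there were 0.711, 1.29 and 2.36 with APH and 0, 0.336 and 1.11 with DMSO, and the groups overlapped (1.83 ± 0.49, adjusted p = 0.00156, edgeR).

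On chromosome 6, 77.0 to 77.5 Mb, the interval of 4.93 Mb overlaps Ctnna2, the neuronal alpha-catenin that links cadherins to the cytoskeleton. The placed starts that enclose the whole gene lie 10.2 Mb apart. The lowest, median and highest rates were 1.28, 1.81 and 3.14 with APH and 0, 0.181 and 1.33 with DMSO. The DMSO value of 1.33 was again line 1 DMSO B, and it was the reason the groups overlapped; the next DMSO experiment had 1.11. The log2 difference was 2.18 ± 0.48 (SE; adjusted p = 0.000346, edgeR).

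A pair of adjoining bins rose on chromosome 5, 132.0 to 133.0 Mb, in the 3.33 Mb interval that holds Auts2, a nuclear and cytoskeletal regulator of neuronal development. Over both bins, APH experiments had 2.99, 4.66 and 7.09 junctions per 1000 and DMSO experiments 0.556, 0.875 and 1.93. No DMSO experiment reached the lowest APH value. The log2 differences of the bins were 1.90 ± 0.44 and 1.59 ± 0.45 (SE; adjusted p = 0.000359 and 0.00306, edgeR). The strand of the junctions differed between these adjoining bins: with APH, 37.0% lay on the plus strand in the left bin and 82.5% in the right one.

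The bin at 35.0 to 35.5 Mb on chromosome 12 holds the placed start of Hdac9, a class IIa histone deacetylase. APH experiments had 1.62, 2.52 and 6.08 and DMSO experiments 0, 0.396 and 3.23, the last being line 1 DMSO B. Without it the highest DMSO value was 1.55, and the log2 difference rose from 1.53 ± 0.40 (adjusted p = 0.00117, edgeR) to 2.44. Further along, 42.0 to 43.0 Mb rose in a stretch that holds Immp2l, a subunit of the mitochondrial inner membrane peptidase. Rates were 4.44, 5.72 and 7.09 with APH and 0.584, 1.11 and 4.93 with DMSO; without line 1 DMSO B the highest DMSO value was 1.55 and the groups did not overlap. At 54.5 to 55.0 Mb, in the 2.77 Mb interval of Npas3, a transcription factor of the bHLH-PAS family, rates were 2.22, 3.70 and 5.07 against 0.285, 0.995 and 1.67, with no overlap (1.59 ± 0.39, adjusted p = 0.00061, edgeR).

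Other narrow intervals with rising bins held long genes of several kinds. Genes were named for their length, and an interval can hold many more, as that of Prkg1 does with 29 protein-coding genes. No kind of gene was tested. Rbfox1, a neuronal splicing factor, lies in the 3.28 Mb interval on chromosome 16, where 6.0 to 7.0 Mb had 1.28 to 6.76 with APH and 0 to 1.67 with DMSO. Prkg1, a cGMP-dependent protein kinase, lies in the 3.85 Mb interval around 31 to 31.5 Mb on chromosome 19, with 1.96 to 3.88 against 0.25 to 1.71 and no overlap. Nrg3, a neuregulin, and Grid1, a delta-type glutamate receptor, both overlap the 4.80 Mb interval on chromosome 14 (39.5 to 40 Mb), with 1.62 to 4.80 against 0 to 1.46. These bins had a low rate in DMSO, often 0 in some experiments, and a rate above it in every or nearly every APH experiment. They were called for this difference, and a bin low in DMSO could enter the test only through its APH experiments. The pattern therefore describes the calls and is no further result.

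**Figure D1:**
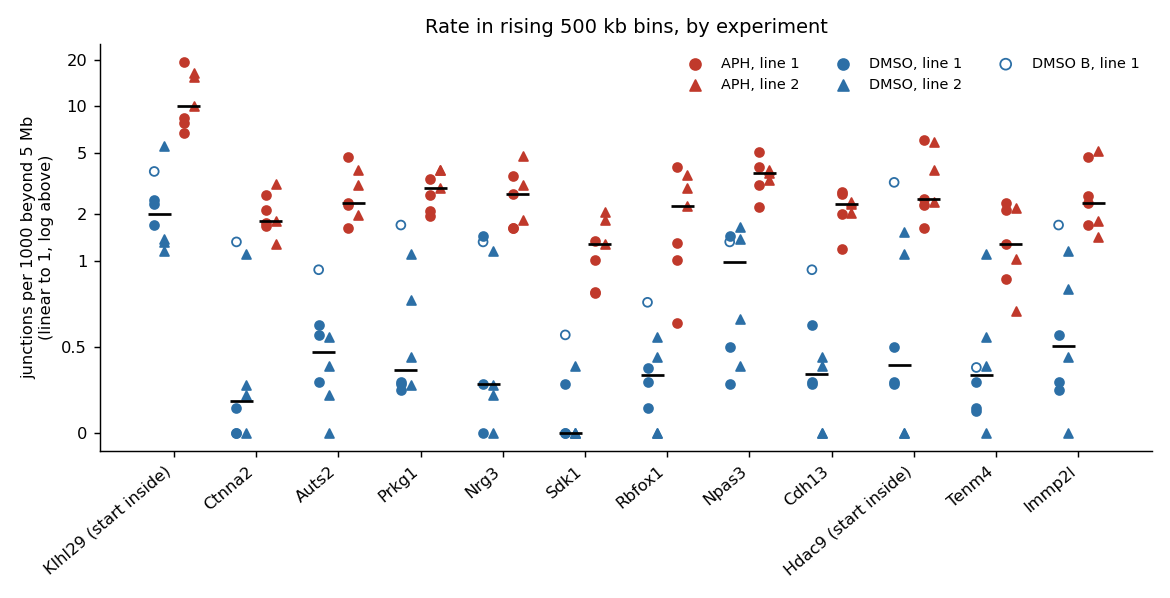
Junctions per 1000 distant junctions (vertical axis, linear to 1 and logarithmic above) in 12 rising 500 kb bins that lie in intervals of at most 6 Mb, named by the gene whose start lies in the bin or the longest gene of the interval. Each point is 1 experiment (circles line 1, triangles line 2, blue DMSO, red APH, open circle line 1 DMSO B) and black lines are group medians. In the Klhl29 bin all APH points lie between 6.75 and 19.3 and all DMSO points between 1.16 and 5.56.

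Non-overlap was counted over all tested bins. In 16 of 167 bins (9.58%) every APH experiment lay above every DMSO experiment, and all 16 were among the 38 called. Without line 1 DMSO B the count was 26 of 167, of which 25 were among the 38. No bin had every APH experiment below every DMSO experiment. Junctions in the rising bins were dispersed: the busiest 1 kb of a bin held 1.02 to 6.82% of its junctions (median 2.81%), and at least 88.0% of a bin's junctions had distinct positions.

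A gene of 500 kb or more lay in the placed interval of 36 of the 38 rising bins, 2 of the 15 falling bins and 55 of the 114 others, counting the 2 unplaced bins by their whole chromosome. The intervals differed in width, with medians of 4.86, 1.53 and 3.06 Mb, and a wider interval holds more genes, so these counts describe the surroundings only. The exceptions among the rising bins were the Klhl29 bin, whose longest gene in the interval is 298 kb, and 12:3.5 to 4.0 Mb, whose longest is Dtnb at 213 kb. In a list of 33 long genes chosen with results of this series known, 27 had a tested bin in their placed surroundings; 21 of these had a rising bin and 0 a falling one. These genes are not independent, since they had 1 to 7 tested bins each and some share an interval, as Csmd3 and Ctnnd2 do. They lay around 55 distinct tested bins, of which 28 rose, beside 22.8% of all tested bins; the list was picked with such results in view, so this is a description only. The 5 without a tested bin were Nbea, Adgrb3, Lpp, Ptprt and Dlg2, and Dcc was not placed.

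The falling bins had few junctions and overlapping groups. The bin with the smallest p, X:166.0 to 166.5 Mb, had 0.518, 1.15 and 1.84 junctions per 1000 with APH and 1.42, 2.52 and 3.42 with DMSO, a log2 difference of -1.47 ± 0.38 (adjusted p = 0.000968, edgeR). At 12:86.5 to 87.0 Mb rates were 0, 0.342 and 0.935 against 0.556, 0.887 and 1.75 (-1.54 ± 0.43, adjusted p = 0.00233, edgeR). Its interval of 0.651 Mb holds 13 protein-coding genes, the longest of 41 kb. The other 8 falling bins named by the same rule were 1:79.5, 8:125.0, 12:28.5, 12:39.5, 12:74.0, 12:85.5, 12:87.5 and 12:109.0 Mb (start of each bin), with log2 differences of -1.16 to -1.70.

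**Figure D2:**
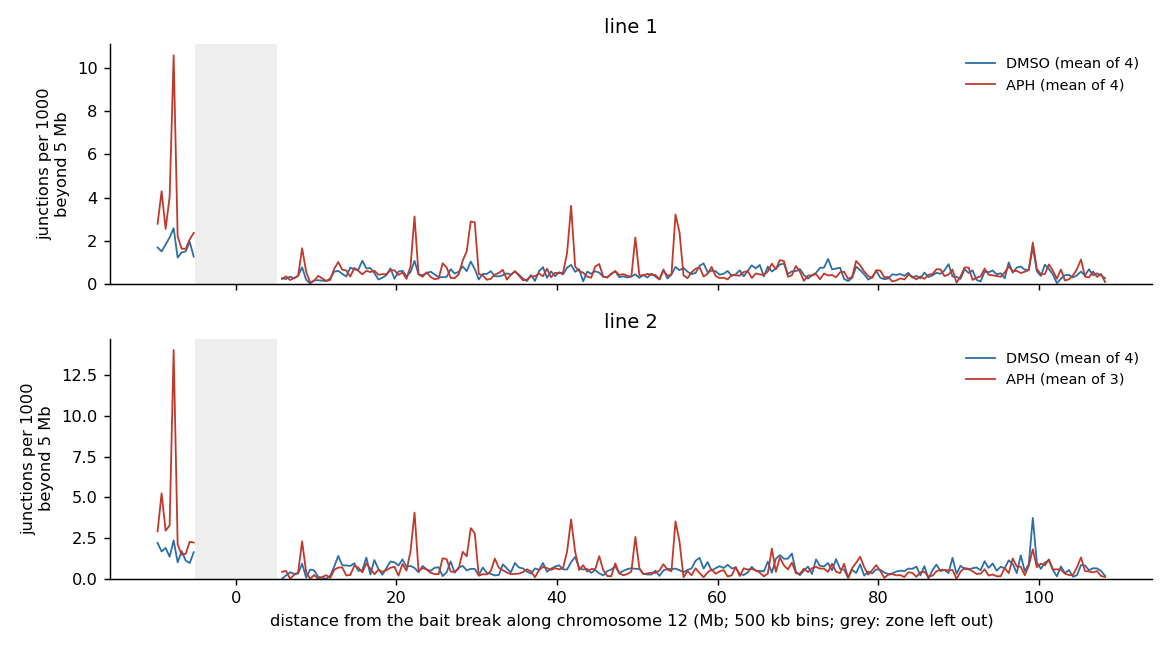
Junctions per 1000 distant junctions in 500 kb bins along chromosome 12 (horizontal axis, distance from the bait break in Mb), for line 1 (top) and line 2 (bottom), as the mean of the APH experiments (red) and of the DMSO experiments (blue); the 5 Mb on either side of the break are left out. The highest APH peak in both lines is the Klhl29 bin on the centromere side.

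The orientation of the prey changed across the rising regions in APH cells. A plus-strand junction runs from the junction towards higher coordinates, so it captures an end whose DNA lies to the right. Each of the 31 regions was split at its midpoint, and 28 had a larger share of plus-strand junctions to the right of it than to the left. The median share was 32.1% on the left and 58.1% on the right. Summed over regions, plus-strand junctions made up 33.0 to 39.5% on the left and 53.9 to 63.8% on the right in the 7 APH experiments, so the ranges did not overlap.

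The left share minus the right share was -23.3 percentage points ± 3.94 (SD, n = 7) with APH, below 0 in 7 of 7 (exact sign-flip test, two-sided, p = 0.0156, the smallest that 7 experiments allow). With DMSO it was -4.66 ± 14.7 (SD, n = 8), below 0 in 5 of 8; these experiments had only 39 to 224 junctions each in the regions. The difference between the treatments was -18.7 points (exact permutation test within line, p = 0.00449), and -21.3 without line 1 DMSO B (p = 0.000816). Within runs it was -17.1 points, below 0 in 6 of 7 (exact sign-flip test, p = 0.0312). The regions were chosen by the higher APH counts of these same experiments and were not chosen anew for each regrouping. The p-values of the treatment difference therefore describe the chosen regions and are no independent test. Line 1 DMSO B itself, at -26.0, lay within the APH range of -28.7 to -18.9. In the 114 tested bins that were not called, the APH value was 4.22 ± 5.53 (SD, n = 7; exact sign-flip test, p = 0.109), and the DMSO value -1.61 ± 7.28 (SD, n = 8). Over all distant junctions the plus-strand share was 49.4% ± 0.77 with APH (SD, n = 7) and 49.4% ± 1.10 with DMSO (SD, n = 8; exact permutation test, p = 0.919).

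**Figure D3:**
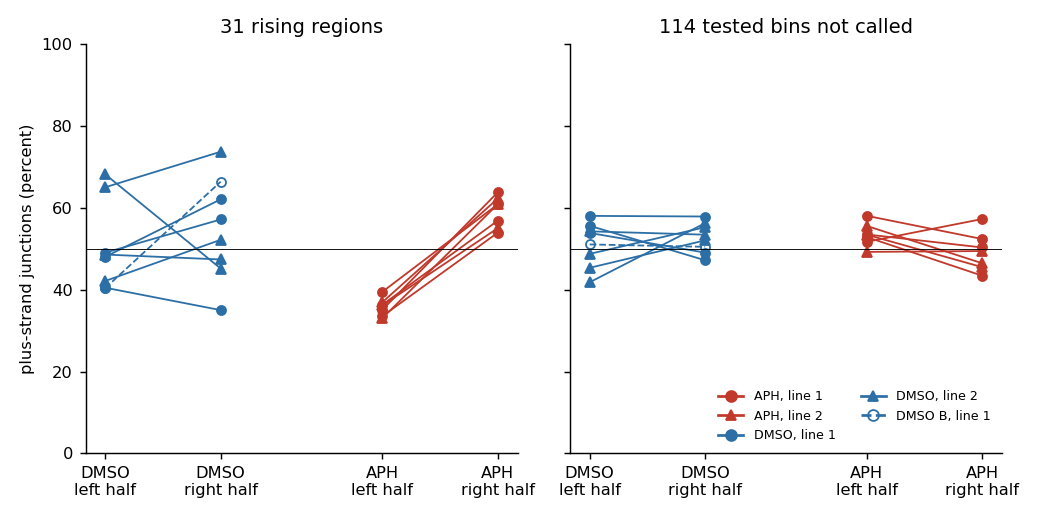
Percent of junctions on the plus strand to the left and right of the midpoint of the 31 rising regions (left panel) and of the 114 tested bins that were not called (right panel). Each line joins the left and right values of 1 experiment (blue DMSO, red APH, circles line 1, triangles line 2, dashed line 1 DMSO B). In the rising regions the 7 APH lines go from 33.0 to 39.5% up to 53.9 to 63.8%.

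Near the bait, junctions lay further out with APH. Junctions within 5 Mb of the break made up 70.4% ± 6.05 of all junctions with APH (SD, n = 7; 59.4 to 76.3%) and 78.4% ± 6.36 with DMSO (SD, n = 8; 68.4 to 86.0%). The difference averaged over lines was -7.78 points (exact permutation test within line, two-sided, p = 0.0302; 0.0705 adjusted over 7 measures), and did not pass the adjustment. Within runs it was -7.35 points, lower with APH in 5 of 7 (exact sign-flip test, p = 0.0625). Without line 1 DMSO B it was -9.03 points (exact permutation test, adjusted p = 0.0343). With each position and strand counted once it was -3.94 points (exact permutation test, p = 0.295), so it depended on how repeated positions were counted.

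The change within this zone was larger than the change of its total. All junctions of an experiment sum to 100%, so a rise in 1 distance class forces falls in others. Junctions within 1 kb of the cut made up 15.5, 27.0 and 30.5% with APH (lowest, median, highest experiment) and 32.9, 40.1 and 47.7% with DMSO, without overlap, a difference of -14.8 points (exact permutation test, adjusted p = 0.00286 over 7 distance classes). Those from 10 kb to 1 Mb made up 6.71, 8.10 and 9.53% with APH and 2.45, 2.81 and 6.30% with DMSO, again without overlap, a difference of 4.77 points (adjusted p = 0.00143). Line 1 DMSO B gave the DMSO value of 6.30%, and the next was 4.10%. Between 1 and 10 kb the total did not pass the test, at 36.0% ± 4.07 against 34.5% ± 3.96 (difference 1.24, exact permutation test, p = 0.558).

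Within that class the sides of the cut went opposite ways. Junctions 1 to 10 kb to the centromere side on the minus strand, whose prey runs away from the cut, made up 13.9, 16.9 and 21.8% with APH and 5.03, 7.27 and 11.5% with DMSO. Every APH experiment was above every DMSO experiment, and the difference was 9.39 points (exact permutation test, p = 0.000408, the smallest that 2450 regroupings allow; adjusted 0.00117 over 20 classes). Junctions 1 to 10 kb to the telomere side on the plus strand, which also run away from the cut, made up 10.3, 15.2 and 17.95% with APH and 15.6, 23.7 and 29.0% with DMSO, a difference of -7.99 points (adjusted p = 0.00371); within runs it was lower in 6 of 7 (exact sign-flip test, p = 0.0312). Within 1 kb the telomere side on the plus strand made up 9.03, 15.4 and 19.0% with APH and 20.6, 28.6 and 33.8% with DMSO, a difference of -12.6 points (adjusted p = 0.00245).

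From 10 to 100 kb, the minus strand of the centromere side rose as well, with 2.39, 2.84 and 3.39% against 0.51, 0.677 and 1.69%; the value of 1.69% was line 1 DMSO B and the next was 0.943% (exact permutation test, adjusted p = 0.00117). The telomere side at this distance passed only without line 1 DMSO B, with an adjusted p of 0.00181 on either strand against 0.185 (plus) and 0.0704 (minus) with it.

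From 100 kb to 1 Mb, all 4 combinations of side and strand rose. The ratios of the means were 4.13 and 3.44 on the centromere side (plus and minus strand) and 2.24 and 4.21 on the telomere side, each with an adjusted p of 0.00117 (exact permutation test). From 1 to 5 Mb the centromere side rose on both strands, with ratios of 3.22 and 2.77 (adjusted p = 0.00245 and 0.00204). The telomere side had ratios of 1.45 and 1.27 and did not pass (adjusted p = 0.0704 and 0.329); the difference between the sides was not tested.

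**Figure D4:**
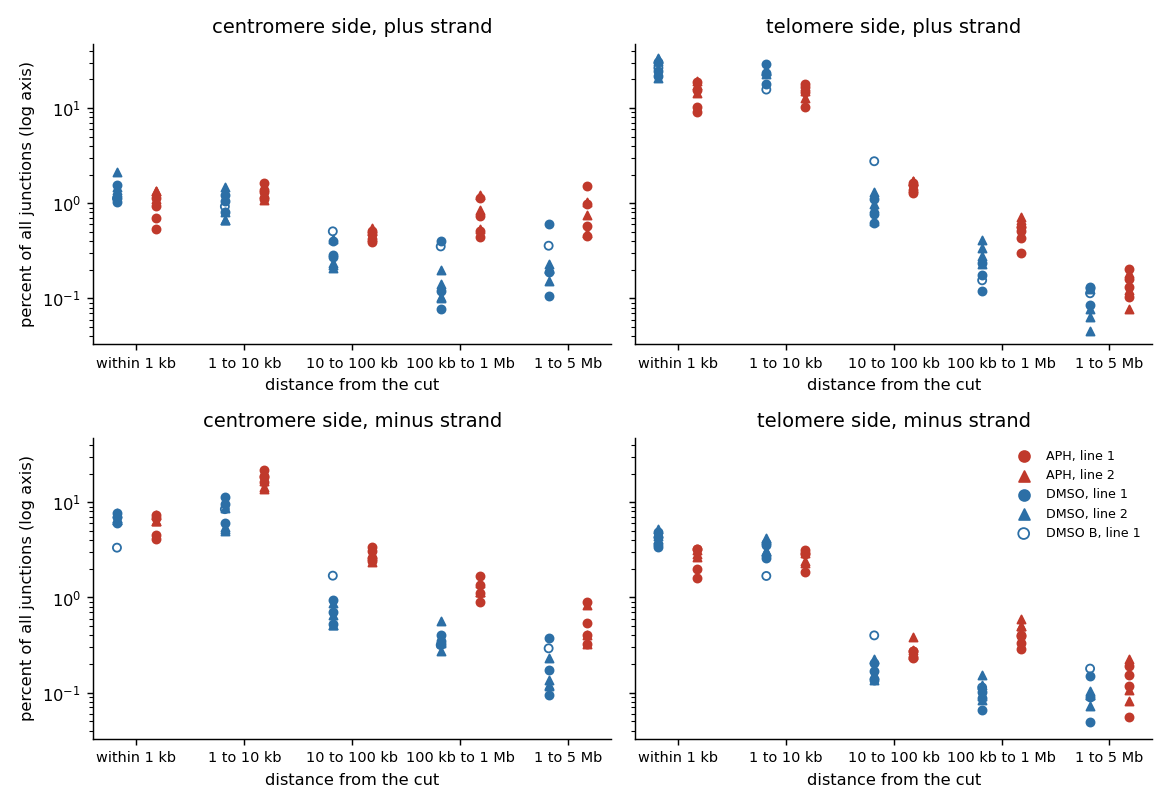
Percent of all junctions (logarithmic axis) in 5 classes of distance from the cut, for the centromere side (left) and telomere side (right) and for plus-strand (top) and minus-strand prey (bottom). Each point is 1 experiment (blue DMSO, red APH, circles line 1, triangles line 2, open circle line 1 DMSO B). On the centromere side, minus strand, 1 to 10 kb, the APH points lie from 13.9 to 21.8% and the DMSO points from 5.03 to 11.5%.

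Chromosome 12 took a larger share of the distant junctions with APH, 15.97% ± 1.30 (SD, n = 7; 13.3 to 17.1%) against 13.4% ± 1.66 (SD, n = 8; 10.5 to 15.3%). The difference was 2.64 points (exact permutation test within line, p = 0.00122, adjusted 0.00857 over 7 measures). With the 10 Mb around the break left out in place of 5 Mb, which also removes the Klhl29 bin, it was 0.868 points (exact permutation test, p = 0.170). Of the other chromosomes, 1 and 13 passed over 20 chromosomes, both lower with APH: 5.53% against 6.28% and 3.41% against 4.03% (exact permutation test, adjusted p = 0.0109 for each). Without line 1 APH D or without line 1 DMSO B, 5 chromosomes passed.

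Joints in both treatments were mostly of the microhomology kind. Among distant junctions, 75.6% ± 1.38 had at least 1 shared base with APH (SD, n = 7) and 72.2% ± 6.72 with DMSO (SD, n = 8), most often 2 bases in each, and the difference of 3.39 points did not pass the test (exact permutation test, p = 0.218). Inserted bases were present in 17.1% ± 1.59 with APH and 18.9% ± 3.36 with DMSO (SD, n = 7 and 8; difference -1.84, exact permutation test, p = 0.271). Both values turned on the experiments that stood apart. In line 1 DMSO B, 23.5% of distant junctions were blunt, against 5.83 to 7.97% in the other 14 experiments. Of its bait ends, 20.1% lay exactly at the cut, against 0.812 to 2.14%. The cut was placed by the blunt joins of this same experiment, so the difference in bait ends is in part built in. Whether the genotype or library of line 1 DMSO B differs from its label was not tested. In line 2 DMSO D, 0 of 18215 junctions had 4 to 9 inserted bases, which allows a share of up to 0.0165% (3 counts; counting error only), against 4.30 to 6.44% in the other 14. Without both, microhomology was 2.38 points higher with APH (exact permutation test, p = 0.0243, adjusted 0.034) and inserted bases 3.07 points lower (p = 0.01, adjusted 0.0267). The experiments left out were set apart by these same measures. The values without them show how far the result depends on them and are no separate test.

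The bait end lost more bases with APH. The median number of bases missing before the cut was 21, 17, 23 and 27 in line 1 APH A to D, and 11, 6, 10 and 24 in line 1 DMSO A to D. In line 2 it was 23, 29 and 23 with APH and 12, 14, 20 and 12 with DMSO. The means were 23.3 ± 3.90 (SD, n = 7) and 13.6 ± 5.76 (SD, n = 8), the groups overlapped through line 1 DMSO D at 24, and the difference was 9.88 bases (exact permutation test within line, p = 0.00449, adjusted 0.0157). Within runs APH was higher in 7 of 7, by 3 to 13 bases with a mean of 9.57 (exact sign-flip test, p = 0.0156, the smallest that 7 differences allow). Without the experiments that stood apart the difference was 8.33 bases (exact permutation test, adjusted p = 0.0275).

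**Figure D5:**
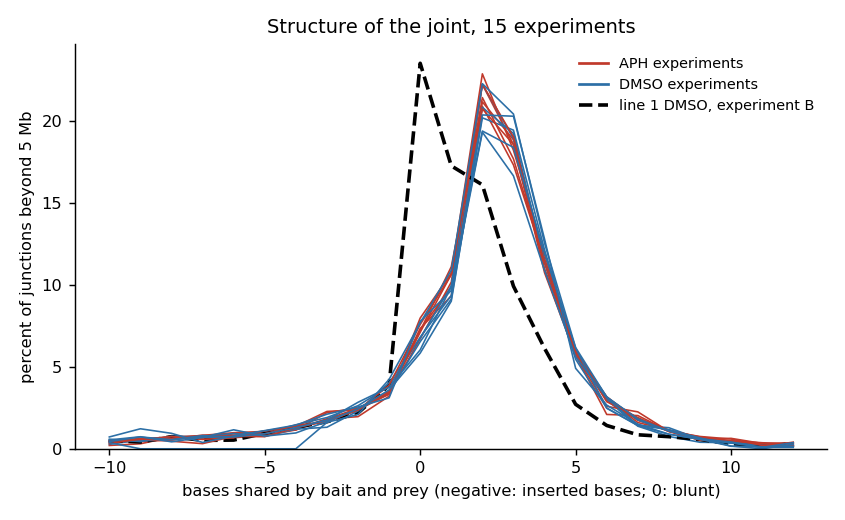
Percent of distant junctions (vertical axis) by the number of bases that bait and prey share at the joint (horizontal axis; negative values are inserted bases and 0 is blunt), 1 line per experiment (red APH, blue DMSO, black dashed line 1 DMSO B). At 0 the dashed line reaches 23.5% and the other 14 lie between 5.83 and 7.97%; 1 DMSO line, that of line 2 DMSO D, is at 0 from 4 to 9 inserted bases.

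The APH effect was compared between the lines in the same bins. The test of the difference called 0 of 167 bins (0% of those tested); 6 bins had an unadjusted p under 0.05, and DESeq2 gave 0 and 4 by the same counts. The rising bins had median log2 differences of 1.36 in line 1 and 2.38 in line 2. In the 167 bins, which were selected on both lines, line 1 alone called 10 (5.99%), 6 as higher with APH and 4 as lower, the 6 all among the 38. Line 2 alone called 36 (21.6%), 28 as higher, 27 of them among the 38, and 8 as lower. With bins selected on its own counts, line 1 alone called 0 rising bins of 68 tested (edgeR; 6 had a higher rate with APH at an unadjusted p under 0.05), and 23 of 112 when its DMSO experiment B was left out; line 2 alone called 12 of 44. A difference between lines was therefore not detected, and its absence is not shown.

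The same bait was also used in ESC of the same lines, labelled genotype and treatments. The 167 bins were selected on NPC counts, and the 16 ESC experiments had 679 to 3646 distant junctions against 1802 to 23420 in NPC, so the numbers of calls cannot be compared. In these bins ESC called 11 as higher with APH (6.59%), of which 6 were among the 38. Of the 38, 25 had a log2 difference above 0 in ESC, beside 89 of all 167, with a median of 0.76 against 0.06 over all 167. The Auts2 and Hdac9 bins rose in both: the bin at 5:132.0 Mb had a log2 difference of 3.62 ± 0.57 in ESC (SE; adjusted p = 1.35e-08, edgeR) against 1.90 in NPC, and the Hdac9 bin 3.23 ± 0.40 (adjusted p = 2.45e-13) against 1.53. The test of the difference between the cell types called 1 of 94 bins (1.06%), 12:62.5 to 63.0 Mb. With a log2 difference of 1.63 for NPC and -1.27 for ESC, the effects differed by 3.12 ± 0.88 (SE; adjusted p = 0.0375, edgeR). NPC experiments had 1.14, 1.85 and 4.06 junctions per 1000 with APH and 0, 0.491 and 1.14 with DMSO there, in an interval of 10.1 Mb that is too wide to name a gene. The Npas3 bin came next (2.39 ± 0.73, adjusted p = 0.0508, edgeR). The call at 62.5 Mb was not stable: leaving out single experiments gave 0 to 2 bins higher in NPC, with each position counted once there were 0, and DESeq2 called 20.

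In NPC with the bait on chromosome 7 or 15, the rising bins lay mostly above 0 as well. Of the 38, 35 had a log2 difference above 0 with those baits, beside 75 of all 167, with a median of 0.89 against -0.13 over all 167 bins. None of 167 passed the adjusted test (edgeR; 0%), and 15 of the 38 had an unadjusted p under 0.05, beside 27 of all 167. These values come from 4 pools a treatment, while those of the chromosome 12 bait come from 15 experiments. The Klhl29 bin had 0.45 with the other baits. The test of the difference between the chromosome 12 bait and the others called 0 of 1991 bins (0% of those tested); 95 bins had an unadjusted p under 0.05, and DESeq2 gave 0 and 16 by the same counts.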

How the data were processed

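Per the labels' protocols, HTGTS used LAM-PCR, a linear amplification from the bait. Per the submitters' processing notes, the tools and builds were Bowtie2 and mm9; the sources used here do not name the junction caller. In the 24 deposited tables a row is a junction, with prey position, strand, alignment ends and experiment letter, per the file headers. The values tested are raw counts of these deposited rows, and the columns of other kinds (positions, names) served only to place them. A read name listed again in a table was left out.

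Junctions more than 5 Mb from the bait break were counted in 500 kb bins, and 1799 to 23400 per experiment on chromosomes 1 to 19 and X entered. Of 5105 bins with a junction, filterByExpr with a minimum count of 5 kept 167 (92 on chromosome 12). They were tested with edgeR 4.0.16 (R 4.3.3; TMM, quasi-likelihood test, Benjamini-Hochberg at 0.05). Pools were the samples for the comparison of baits. Shares were compared by exact permutation of treatment within line, over 2450 regroupings, or 1225 without line 1 DMSO B and 700 without line 2 DMSO D as well. Data were also simulated with the same spread for all bins, the median of the bin test's trend. Of the changed bins, 41.7% of 36 of 2-fold and 95.8% of 71 of 4-fold were recovered among 176 tested. Of 89 calls, 6.74% were unchanged bins. Rises and falls were simulated with equal chance, while most real calls were rises, so these rates need not hold for the real data. RefSeq promoter windows (GRCm38.p6) were matched for 27025 genes. Same-lettered experiments of a line shared a sequencing run by their read names, and shares were also tested by exact sign flips of the 7 differences within runs, chosen after seeing the data. Python 3.11.15, pandas 2.3.3, numpy 2.4.6 and DESeq2 1.42.0 were used.

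Bins named are the 25 rising and 10 falling with the smallest p and the same sign in both lines, and the 5 with the smallest p in each test of a difference; the text gives values for part of them. Of the rising bins named by the rule, 2 are not reported here. 12:3.5 Mb was named after its values were seen. The members and lists were chosen with earlier results of these data known. The distance classes, strand either side of the midpoint, bait-end loss and the leaving out of experiments that stand apart were chosen after seeing the data.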

Additional observations from a re-analysis of the deposited data

Results flagged for a closer look

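In 20 of 177 groups of 4 experiments, of single rates and shares, 1 experiment lay far from the other 3; chance gives about 1 in 20. Line 1 DMSO B accounted for 8. Its share of joints with microhomology was 57.5% (others of its group 73.5 to 75.1%) and of blunt joints 23.5% (6.53 to 6.81%). Its junctions per 1000 were high in the rising bins at 6:77.0 Mb (1.33), 19:31 Mb (1.71), 3:24 Mb (1.52), 18:25 Mb (0.949), 12:35.0 Mb (3.23) and 12:42.0 Mb (3.23). Of its 1240 blunt distant junctions, 593 ended at the cut, which was placed by blunt joins of this experiment, at 587 distinct positions. In 65 other experiments or pools of the series, 5.10 to 11.95% of joints were blunt and 47.5 to 80.9% had microhomology, so its microhomology share lay within their range and its blunt share above it.

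Line 2 DMSO D stood apart near the bait, with 8.63% of junctions 1 to 10 kb to the centromere side on the minus strand and 4.25% on the telomere side on the minus strand. It also had 0.417% at 10 to 100 kb to the centromere side on the plus strand and 0.231% at 1 to 5 Mb to the centromere side on the minus strand. In the Klhl29 bin, line 1 APH C (19.3 per 1000) and line 2 DMSO C (5.56) were above the others of their groups. Line 1 APH C had 0 at 8:125.0 Mb, where the others had 0.299 to 0.36.

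The remaining values were single junctions or few where the other experiments had 0. Line 2 DMSO A had 0.387 per 1000 at 5:142.0 Mb, line 1 DMSO D 0.375 at 10:31.5 and 0.125 at 4:65.5 Mb, and line 2 DMSO B 0.278 at 3:24 and at 4:65.5 Mb.

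The APH effect at 12:62.5 to 63.0 Mb differed between NPC and ESC by 3.12 on the log2 scale (adjusted p = 0.0375, edgeR).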

How the results depend on the processing

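No difference that passed its test reversed under the alternatives run. Among those that did not pass, leaving out line 1 DMSO B changed several signs. The total from 1 to 10 kb of the cut went from 1.24 to -0.0139 points and the blunt share from -1.56 to 0.546 points. The plus-strand share of distant junctions went from -0.0564 to 0.0127 points and the chromosome X share from -0.0166 to 0.147 points. Against 38 bins that rose and 15 that fell, 250 kb bins gave 17 and 9, pools as samples 66 and 6, chromosome 12 left out 17 and 7, line 1 alone 0 and 2 (23 and 8 without its DMSO experiment B), and line 2 alone 12 and 8. No filter gave 76 and 0, as did TMM factors from all bins, which moved the median of all bins to 0.93. Total junctions as library size gave 58 and 2 (59 and 7 without line 1 DMSO B). All 24 pools in 1 fit gave 31 and 0. Splitting the A and B reads of line 2 APH gave 16 that rose. Leaving out single experiments gave 26 to 46 that rose and 7 to 25 that fell. DESeq2 called 33 and 13, 1 Mb bins 55 and 11. Other alternatives moved these counts by less than 1.5 times.

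The difference between NPC and ESC gave 4 bins higher in NPC and 5 lower with 1 Mb bins, 20 higher with DESeq2, 0 with no filter, 0 with each position once, and 0 to 2 higher and 0 to 1 lower without single experiments. The share within 5 Mb differed by -3.94 points with each position once, -6.27 in line 1 alone, -9.30 in line 2 alone and -9.03 to -6.08 without single experiments. The chromosome 12 share differed by 0.868 with a 10 Mb zone, 3.12 in line 1 alone (4 against 4, exact p = 0.0571) and 2.34 to 2.99 without single experiments. Microhomology differed by 1.27 to 4.51 and inserted bases by -3.09 to -1.27 without single experiments. Both passed only without line 2 DMSO D, which was set apart by its inserted bases. Without single experiments, 2 to 5 chromosomes passed.

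The labels give letters only, but by the read names same-lettered APH and DMSO experiments shared a sequencing run. Their deviations correlated at -0.127 to 0.245, over 0.1 in 1 of 8 pairs. With the replicate block, 37 bins rose and 14 fell, and the share within 5 Mb differed by -7.35 (exact sign-flip test, p = 0.0625). The median correlation was -0.0136 for pairs of the same letter. For pairs of other letters in the same line it was 0.0394, over 0.1 in 4 of 20. Other distance-class, chromosome and bait-end differences given as passing with all experiments had the same sign within runs. Their exact sign-flip p was 0.0156, but 0.0312 for the plus strand 1 to 10 kb to the telomere side. The telomere side from 10 to 100 kb passed only without line 1 DMSO B. Within runs, with that experiment kept, its exact sign-flip p was 0.266 (plus) and 0.125 (minus). Depth limits single bins: DMSO experiments often held 0 to 5 junctions in a rising bin.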
